A study of Mus musculus with 2 samples.

Results

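The genes described here are 9 mouse genes that write, copy, erase or read DNA methylation, namely Dnmt1, Uhrf1, Dnmt3a, Dnmt3b, Tet1, Tet2, Tet3, Mbd2 and Mbd3. They were chosen by symbol, with earlier results of these data known, and all 9 were found among the 16902 genes listed in either of 2 RNA-seq libraries. One library came from EpCAM+ breast tumour epithelial cells of PyMT mice, whose tumours are driven by the polyoma virus middle T oncogene, and the other from PyMT;Zeb1cKO mice, the same tumour model with a conditional knockout of Zeb1. The study asked which tumour cell signals link Zeb1 to the polarization of macrophages. Each genotype has 1 library. Replicate error is therefore unknown, genotypes were not tested against each other, and what the knockout did cannot be told apart from differences between animals, tumours or preparations. The promoter of the oncogene, the Cre driver, the age and strain of the mice, and whether tumours were pooled are not stated by the labels.

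In mammals a methyl group on the cytosine of CpG pairs is set down by the de novo methyltransferases Dnmt3a and Dnmt3b. After each round of DNA replication it is copied onto the new strand by Dnmt1, which Uhrf1 guides to hemimethylated sites. The Tet dioxygenases oxidise methylcytosine on the way to its removal, and Mbd2 binds methylated CpG and brings the NuRD chromatin remodelling complex. Mbd3, its close relative in NuRD, binds methylated DNA weakly in mammals and takes the place of Mbd2 in separate complexes.

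The libraries held 21580274 (PyMT) and 21277484 (knockout) estimated counts. Zeb1 had 96 counts in the PyMT and 38 in the knockout library. The count covers the whole gene, with reads inside and outside the deleted part not separated. Its FPKM (fragments per kilobase of transcript, scaled to library depth) was 0.79 and 0.32, below the filter of 1 used here in both libraries. The epithelial markers were abundant in both, with Epcam at 740.8 and 479.7 FPKM and Krt18 at 1836 and 712.4. The summed FPKM of the 6 epithelial markers was 4694 in the PyMT and 2330 in the knockout library, with a median log2 ratio of -0.78 and 2 of 6 at least 2-fold lower. Markers of other cells were present too: the summed FPKM of 6 macrophage markers was 343.2 and 283.1, of 6 fibroblast markers 505.9 and 623.2, of 5 endothelial markers 58.82 and 39.31, of 6 pan-leukocyte markers 74.0 and 74.85, and of 6 neutrophil markers 272.3 and 16.04. Within the fibroblast, pan-leukocyte and macrophage lists genes went both ways. Among endothelial markers 1 of 5 had a log2 ratio above 0, and all 4 compared neutrophil markers were at least 2-fold lower. Of the fibroblast markers, Col3a1 was at 97.48 and 145.84 FPKM and Dcn at 22.87 and 14.27. Of the pan-leukocyte markers, Ikzf1 was at 17.31 and 28.03 and Cytip at 6.93 and 2.98. The median log2 ratio was 0.14 for fibroblast, -0.16 for pan-leukocyte, 0.09 for macrophage, -0.49 for endothelial and -3.20 for neutrophil markers. S100a8 made up most of the neutrophil sum, at 225.82 and 14.99 FPKM, with S100a9 at 39.1 and 1.03. Ngp, Camp and Ly6g, 3 of the neutrophil markers, were listed in the PyMT library alone. Lymphocyte markers were near 0, with 5 of 6 listed at a summed 0.87 and 0.78 FPKM and Ms4a1 listed in neither library. The part of these cells in the values below was not tested, and fewer cells of a type and less RNA per cell cannot be told apart in bulk RNA.

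The maintenance genes Dnmt1 and Uhrf1 were higher in the knockout library, Tet2 and Mbd2 were lower, and the other 5 genes had count ratios from 0.976 to 1.72. Differences are given in 2 ways. The count ratio is knockout over PyMT after division by the library total, with an exact 95% interval that covers counting error only. The log2 ratio is that of FPKM + 1, for the 12653 genes whose higher FPKM reached 1, and 2-fold on this scale is a rule of size, not a test. Of the 9 genes 8 passed that filter, all but Tet1. Dnmt1 and Uhrf1 were at least 2-fold higher, against 10.2% of all compared genes, Tet2 was at least 2-fold lower, against 8.78%, and the other 5 lay within 2-fold. By count ratio, Dnmt1 and Uhrf1 were again the 2 genes past 2-fold higher, against 15.4% of all compared genes, and no member was 2-fold lower, against 11.7%. As the authors scaled them, the median log2 ratio of the 8 genes was 0.36 and that of all compared genes 0.13. With a median-ratio scaling or with TMM factors the median of all compared genes was 0.00. The count ratios of the members were lower under these scalings too, so 0.36 is not to be set against 0.00. Of all genes past 2-fold, 53.7% were higher as scaled by the authors, 42.3% with the median ratio and 41.9% with TMM factors. All 9 genes had whole-number counts in both libraries (tolerance 1e-09), so the counts show no sign of reads shared with another gene.

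**Figure D1:**
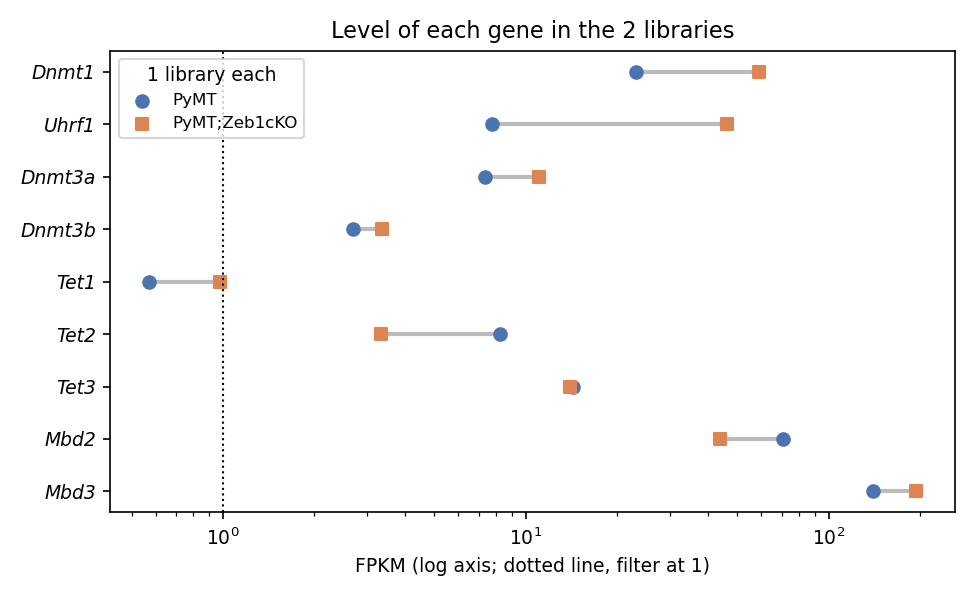
FPKM of each gene (log axis) in the PyMT library (circles) and the PyMT;Zeb1cKO library (squares), 1 library each, joined by a line. Uhrf1 and Dnmt1 have the longest lines toward the knockout library and Tet2 the longest toward the PyMT library. The Tet2 line carries a difference in listed length between the libraries. Tet1 stays below the filter of 1 in both.

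Dnmt1 (Entrez gene 13433, chromosome 9, 20907209 to 20959888, GRCm38), the enzyme that copies methylation after replication, had 2541 counts in the PyMT and 6418 in the knockout library. Its level was 23.18 and 59.12 FPKM. The count ratio was 2.56 (2.45 to 2.68) and the log2 ratio 1.31, and 5.28% of all compared genes had a higher log2 ratio. Uhrf1 (Entrez gene 18140, chromosome 17, 56303321 to 56323486), the factor that reads hemimethylated CpG and recruits Dnmt1, had 554 and 3294 counts, or 7.72 and 46.09 FPKM. Its count ratio of 6.03 (5.51 to 6.61) was the highest of the 9, its log2 ratio was 2.43, and 0.775% of all compared genes lay above it. The partners therefore did not differ by the same factor. Per Dnmt1 count there were 0.218 Uhrf1 counts in the PyMT and 0.513 in the knockout library, a change of 2.35-fold (2.13 to 2.61) that does not depend on how the libraries are scaled.

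Both genes are known to be used most in S phase, and genes of S phase were higher in the knockout library as a group. Of 26 S-phase genes, 23 were at least 2-fold higher and none was lower by that rule, beside 10.2% and 8.78% of all compared genes. The median log2 ratio of the 26 was 1.83, with a range of 0.74 to 3.10. Uhrf1 lay above 22 of these 26 genes on the log2 ratio of FPKM + 1 and above 19 by count ratio, and Dnmt1 lay above 7 and above 4. The median S-phase gene was at 7.88 FPKM in the PyMT and 34.4 in the knockout library. Dnmt1 stood at 2.94 times that median in the PyMT and 1.72 times in the knockout library, whereas Uhrf1 stood at 0.979 and 1.34 times. Set against the replication clamp gene Pcna, whose PyMT count was not whole (1389.65 and 4617 counts), Dnmt1 went from 1.83 to 1.39 counts per Pcna count (change 0.76, 0.705 to 0.821) and Uhrf1 from 0.399 to 0.713 (change 1.79, 1.6 to 2). Thus relative to S-phase genes Dnmt1 was lower and Uhrf1 higher in the knockout library. The part of proliferation in either ratio was not tested.

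The start sites of these genes were searched for the letters of 4 E2F motifs, because Dnmt1 and Uhrf1 were the members past 2-fold together with genes of S phase, which E2F factors are known to control. Sequences are from RefSeq (GRCm38.p6), as windows from 250 bases before to 50 after each start, and 8 of the 9 genes matched, all but Mbd2. The motifs were TTTCCCGC, TTTGGCGC, TTTCGCGC and TTTGCCGC, on both strands. Dnmt1 and Uhrf1 were the 2 of 8 genes with a match to any of them. Of the 9761 compared genes that have a window 4.76% had a match, and of 32851 windows in the genome 2.26%. Of the 20 S-phase genes that have a window 9 had a match. The search was made after the values of Dnmt1 and Uhrf1 were seen, and a role of E2F factors was not tested. No E2F match overlapped another motif searched. TTTCGCGC stood in windows of both genes, against 0.799% of those compared genes (0.323% of all windows), and TTTGGCGC in a window of Dnmt1, against 1.09% (0.514% of all windows). The 2 genes have several windows each, which raises the chance of a match. The Uhrf1 stretch below is the 250 bases before a start (chr17:56304063-56304312, plus strand), outside annotated exons of Uhrf1, with TTTCGCGC and 2 CCAAT boxes in capitals. The Dnmt1 stretches (minus strand, written 5′ to 3′) are short pieces around its matches, in capitals, the first (chr9:20952824-20952853) on the reverse strand of the motif and the other (chr9:20952574-20952601) in the direction of the gene. Both lie in exons annotated as untranslated in at least 1 transcript.
Uhrf1: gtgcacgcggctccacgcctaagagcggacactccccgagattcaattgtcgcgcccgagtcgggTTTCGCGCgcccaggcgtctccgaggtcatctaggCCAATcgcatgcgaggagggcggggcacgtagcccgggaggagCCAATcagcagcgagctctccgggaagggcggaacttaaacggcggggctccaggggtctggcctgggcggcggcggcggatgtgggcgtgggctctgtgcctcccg
Dnmt1 first match: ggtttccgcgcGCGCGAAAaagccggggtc
Dnmt1 second match: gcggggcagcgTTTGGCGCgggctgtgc
A match describes letters only and shows no binding.

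The same windows were searched for CAGGTG, the E-box that Zeb1 is known to bind, since Zeb1 is the gene deleted here. It stood in windows of 2 of the 8 genes, Dnmt1 and Dnmt3b, against 21.3% of the compared genes that have a window (20.2% of all windows). A link of these letters to the count ratios of the 2 genes (2.56 and 1.26) was not tested. The pieces around the E-box, in capitals, lie at chr9:20959839-20959864 (minus strand, the most upstream Dnmt1 start) and chr2:153649199-153649218 (plus strand).
Dnmt1 E-box: gaaggaaccatCAGGTGgaagccctc
Dnmt3b E-box: tctCAGGTGgagagggctgg
The GC box GGGCGG, a common promoter element, stood in a window of all 8 genes and in 69.4% of the compared genes that have a window. The CCAAT box stood in windows of 4 of the 8 (Dnmt1, Uhrf1, Tet3 and Mbd3), against 43.2% of those compared genes (37.4% of all windows). TTTGAA, the cell cycle homology region, stood in windows of Dnmt1 and Dnmt3b, against 14.3% (17.9% of all windows).

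Of the de novo enzymes, Dnmt3a was higher in the knockout library, and the smaller difference of Dnmt3b depended on the scaling. Dnmt3a (Entrez gene 13435, chromosome 12, 3806007 to 3914443) had 1415 and 2097 counts, or 7.36 and 11.1 FPKM, with a count ratio of 1.5 (1.4 to 1.61). Dnmt3b (Entrez gene 13436, chromosome 2, 153649450 to 153687730) was low, with 223 and 276 counts, 2.7 and 3.35 FPKM, and a ratio of 1.26 (1.05 to 1.5). With the median-ratio scaling Dnmt3b was at 1.12 (0.939 to 1.35), an interval that holds 1, and Dnmt3a at 1.35 (1.26 to 1.44). The Dnmt3b count per Dnmt3a count differed by a factor of 0.835, with an interval (0.688 to 1.01) that reached 1. Per length, Dnmt1 made up 69.7% of the summed FPKM of the 3 methyltransferases in the PyMT and 80.4% in the knockout library, and Dnmt3a 22.1% and 15.1%. The count of Dnmt3a per Dnmt1 count was 0.557 and 0.327, a change of 0.587 (0.54 to 0.637), so the mix moved toward the maintenance enzyme although both genes had ratios above 1. Antisense transcripts are annotated across 2952 bases of Dnmt3a and 837 bases of Dnmt3b. Whether reads were assigned by strand is not stated by the labels or headers.

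**Figure D2:**
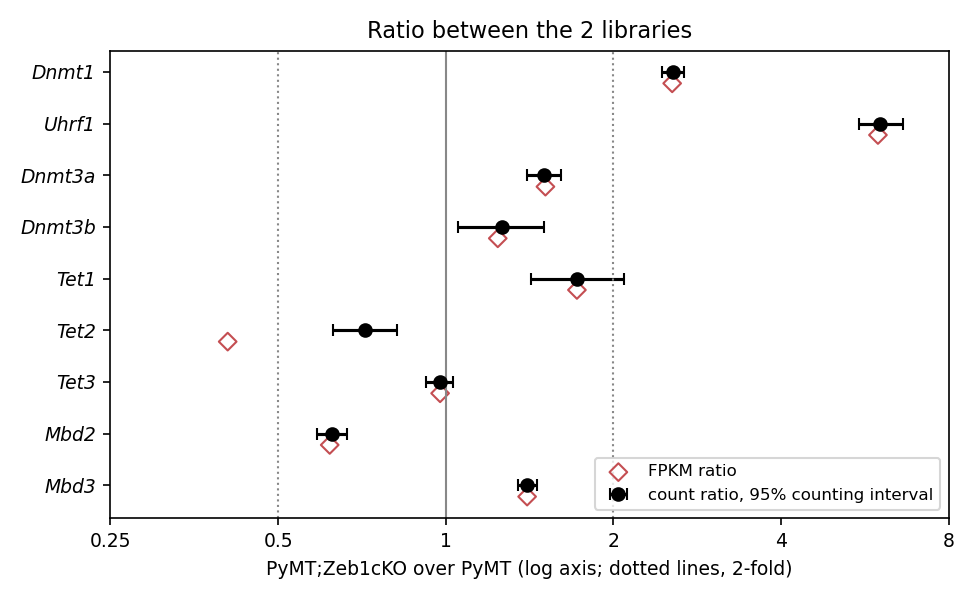
Ratio of the knockout library over the PyMT library for each gene (log axis), as the count ratio with its 95% counting interval (filled circles) and as the ratio of deposited FPKM values (open diamonds). The pairs of symbols lie close together except for Tet2, at 0.716 by counts and 0.406 by FPKM.

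Among the erasers, Tet3 was the most abundant per length and differed little between the libraries, Tet1 was scarce, and the value of Tet2 depended on the unit. Tet3 (Entrez gene 194388, chromosome 6, 83362373 to 83459084), the Tet enzyme also known from the zygote, had 2494 and 2399 counts, 14.36 and 14.03 FPKM, and a count ratio of 0.976 whose interval (0.922 to 1.03) held 1. With the median-ratio scaling the ratio was 0.874 (0.826 to 0.925), which no longer holds 1, so whether Tet3 was lower depended on the scaling. Tet1 (Entrez gene 52463, chromosome 10, 62804570 to 62908996), an enzyme best known from embryonic stem cells, had 170 and 288 counts, or 0.57 and 0.98 FPKM. Its count ratio was 1.72 (1.42 to 2.09).

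Tet2 (Entrez gene 214133, chromosome 3, 133463679 to 133545139), an enzyme whose loss is known from blood cancers, had 557 counts in the PyMT and 393 in the knockout library. The count ratio was 0.716 (0.627 to 0.816), within 2-fold. Its FPKM was 8.2 and 3.33, a ratio of 0.406 and a log2 ratio of -1.09, past 2-fold. The deposited tables give Tet2 a length of 3336.19 bases in the PyMT and 5716.47 in the knockout library, a factor of 1.71, and the FPKM divides by that length. The tables hold 3 Tet2 transcripts, of which 2 are unnamed models, and the length listed for a gene with several transcripts differs with the library. For the other 8 genes the lengths differed by a factor of 0.995 to 1.01. Across the 12579 compared genes in both tables, 34 (0.27%) had lengths that differed by over 1.5-fold. The Tet2 count of 0.223 per Tet3 count in the PyMT and 0.164 in the knockout library differed by a factor of 0.734 (0.635 to 0.846). Thus Tet2 was lower in the knockout library by either measure, but at least 2-fold lower only by FPKM.

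The readers Mbd2 and Mbd3 went in opposite directions. Mbd2 (Entrez gene 17191, chromosome 18, 70568189 to 70626131) had 2558 counts in the PyMT and 1577 in the knockout library, or 70.73 and 43.8 FPKM. Its count ratio of 0.625 (0.587 to 0.666) was the lowest of the 9, and its log2 ratio was -0.68. Mbd3 (Entrez gene 17192, chromosome 10, 80392539 to 80399550) was the most abundant of the 9 per length, with 4208 and 5821 counts, or 139.6 and 194.8 FPKM. Its count ratio was 1.4 (1.35 to 1.46) and its log2 ratio 0.48. Per Mbd2 count there were 1.65 Mbd3 counts in the PyMT and 3.69 in the knockout library, a change of 2.24-fold (2.08 to 2.42), which no scaling of the libraries alters. Per length, Mbd3 made up 66.4% of the pair in the PyMT and 81.6% in the knockout library. Neither gene alone passed 2-fold.

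**Figure D3:**
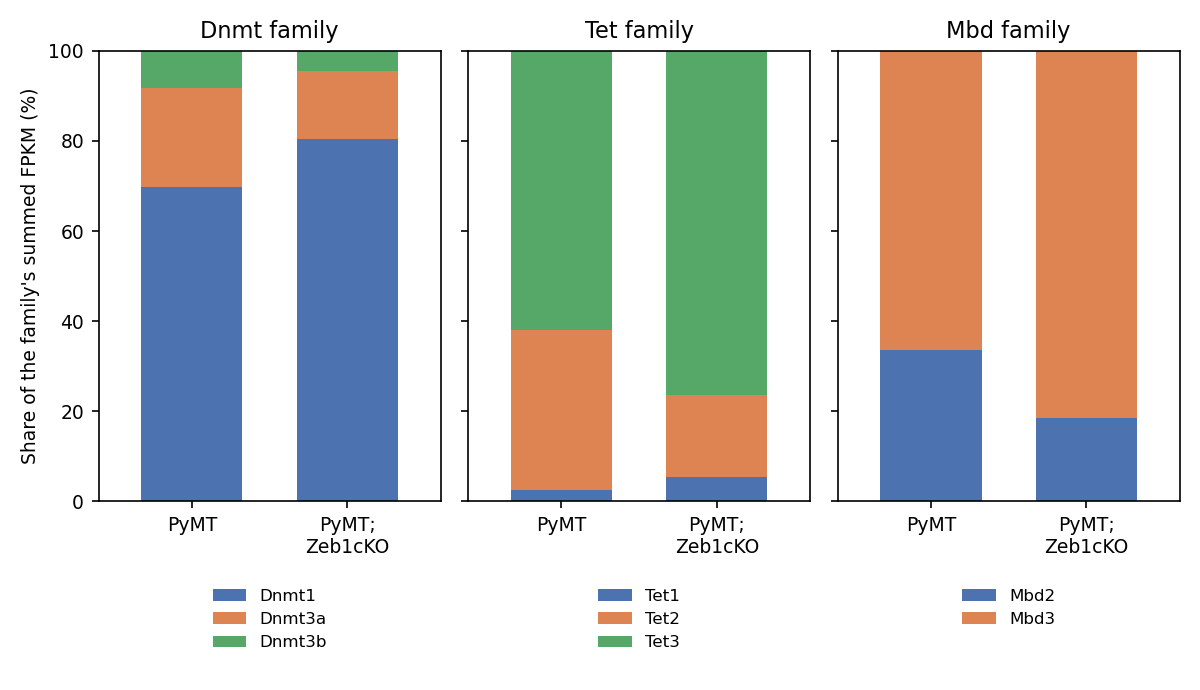
Share of each gene in the summed FPKM of its family (percent) in the PyMT and PyMT;Zeb1cKO libraries, 1 library each. Dnmt1 goes from 69.7% to 80.4%, Tet2 from 35.5% to 18.2% and Mbd3 from 66.4% to 81.6%, and the Tet2 share carries the difference in listed length.

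The order of the 9 genes by FPKM was Mbd3, Mbd2, Dnmt1, Tet3, Tet2, Uhrf1, Dnmt3a, Dnmt3b and Tet1 in the PyMT library. The order for the knockout library was Mbd3, Dnmt1, Uhrf1, Mbd2, Tet3, Dnmt3a, Dnmt3b, Tet2 and Tet1. Tet2, Uhrf1 and Dnmt3a were close in the PyMT library, at 8.2, 7.72 and 7.36 FPKM, as were Uhrf1 and Mbd2 (46.09 and 43.8) and Dnmt3b and Tet2 (3.35 and 3.33) in the knockout library. The spread between libraries of 1 genotype, which would separate such neighbours, is not known. The ranks of Tet2 also carry its listed lengths, 3336.19 bases in the PyMT and 5716.47 in the knockout library.

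Other genes of the pathway were taken from 7 lists with 65 compared genes, of which 10 (15.4%) were at least 2-fold higher and 3 (4.62%) lower in the knockout library, beside 10.2% and 8.78% of all compared genes. Counts of 1 gene in a list of 8 to 12 are near that background. Among 11 compared cofactors and helpers of methylation, 3 were 2-fold higher and none lower, with a median log2 ratio of 0.43. Hells, a remodeller that helps methylation of packed chromatin, had 49 and 563 counts (ratio 11.7, 8.69 to 15.9), and Cdca7, the protein that brings Hells to its sites, 160 and 964 (6.11, 5.16 to 7.27). Uhrf2, the relative of Uhrf1, was at 11.92 and 28.35 FPKM (2.42, 2.23 to 2.63), with counts that were not whole in the knockout library. The lowest were Usp7, which removes ubiquitin from Dnmt1 and Uhrf1 (log2 ratio -0.22), and Zbtb24 (-0.06).

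The other methyl-CpG readers went both ways. Of 8 compared, 1 was 2-fold higher and none lower, with a median of 0.02. That gene was Mbd4, a glycosylase that repairs mismatches at CpG, at 0.88 and 2.9 FPKM, with counts that were not whole in the PyMT library. Zbtb33, which encodes the reader Kaiso, was at 5.06 and 9.35 FPKM (count ratio 1.86, 1.67 to 2.07; counts not whole in the knockout library). Mbd1, a reader of the Mbd family, was at 23.01 and 19.45 (0.772, 0.724 to 0.822), and the zinc finger reader Zbtb4 at 7.48 and 5.9 (0.79, 0.725 to 0.86).

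The NuRD subunits, the partners of Mbd2 and Mbd3, also lay mostly within 2-fold. Of 12, 1 was 2-fold higher and none lower, with a median of 0.34. The deacetylase Hdac2 was at 28.52 and 64.48 FPKM (count ratio 2.28, 2.12 to 2.45), the remodeller Chd3 at 21.51 and 35.56, and the lowest was Mta1 at 57.11 and 42.04, with Gatad2a (log2 ratio -0.39) and Gatad2b (-0.39) next to it. Among TET partners, Ogt, which adds sugar to Tet proteins and their targets, was at 12.13 and 20.32 FPKM, and the zinc finger gene Cxxc5 at 46.77 and 22.44 (count ratio 0.493, 0.459 to 0.529).

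Of 11 genes grouped under base excision, which replaces the oxidised base, 9 had a log2 ratio above 0. Most of all compared genes as the authors scaled them also lay above 0. Their median was 0.13, and that of the 11 was 0.70. By the 2-fold rule 1 was higher and 2, both of them Gadd45 genes, were lower, beside 10.2% and 8.78% of all compared genes. Parp1, a sensor of DNA breaks, had 1371 and 4586 counts (ratio 3.39, 3.19 to 3.61), and Apex1, which cuts the strand at the emptied site, 1771 and 3316 (1.9, 1.79 to 2.01). The repair scaffold Xrcc1 was at 29.96 and 51.4 FPKM and the repair polymerase Polb at 19.02 and 32.04, and the glycosylase Tdg, which removes oxidised methylcytosine, was at 50.3 and 54.6 FPKM. The stress-response genes Gadd45g (1014 and 219 counts, ratio 0.219, 0.188 to 0.254) and Gadd45b (713 and 193, ratio 0.275, 0.233 to 0.322) were lower, whereas Gadd45a of the same family was at 748 and 1292.

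Among genes that supply the methyl donor, 3 of 10 were 2-fold higher and none lower, beside 10.2% and 8.78% of all compared genes. The median log2 ratio of the 10 was 0.42. Mat2a, the enzyme that makes S-adenosylmethionine, had 1470 and 3182 counts (ratio 2.2, 2.06 to 2.34), and the methionine synthase gene Mtr 121 and 342 (2.87, 2.32 to 3.56). Mat2b, the regulatory partner of Mat2a, was at 63.71 and 46.57 FPKM. Ahcy, which clears the by-product of methylation, was listed with 40.42 and 2256.41 counts, and it shares reads with its near copy Gm4737 (2166.58 and 2959.74), so its own ratio is uncertain. The 2 together had 2207 and 5216 counts, a ratio of 2.4 (2.28 to 2.52). Of 11 genes of TET cosubstrate metabolism, 1 was 2-fold higher and none lower, with a median of 0.58. It was D2hgdh, which removes the TET inhibitor D-2-hydroxyglutarate, at 1.89 and 6.11 FPKM with counts that were not whole. Idh1 was at 26.64 and 40.26 and Idh2 at 196.7 and 183.1.

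**Figure D4:**
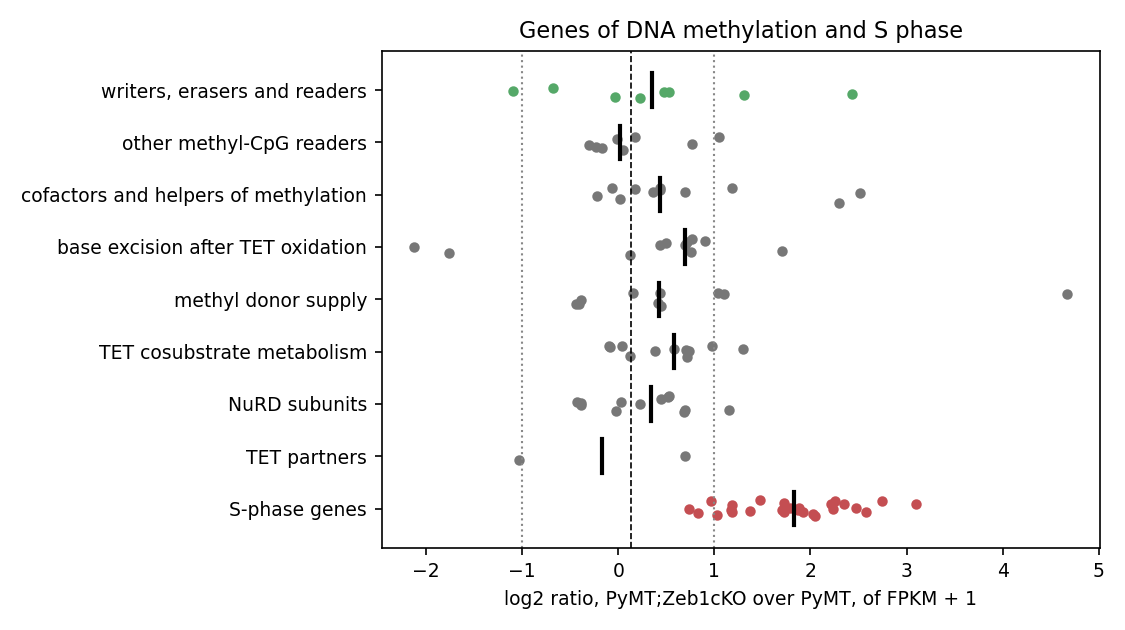
Log2 ratio of FPKM + 1, knockout over PyMT, for each compared gene (points) of the members (green), the related lists (grey) and the S-phase genes (red), with list medians as black bars. The dashed line is the median of all compared genes (0.13) and dotted lines mark 2-fold; the S-phase points all lie above 0 and the other lists straddle it.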

How the data were processed

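RNA-seq of 2 mouse libraries was used, 1 per genotype, grouped by the labels' titles. Per the file headers, the authors' deposited tables give an expected count (estimated count) and an FPKM value per gene, with a gene length that can differ between the libraries. Per the submitters' processing notes, the tools were RSEM 1.2.8, Bowtie2 2.2.5, HISAT2 2.1.0 and DESeq and the build mm10, with no role given to any of them. The labels state neither the annotation nor the strand setting. Models without a symbol held 2.33% (PyMT) and 2.68% (knockout) of the counts and stayed in the totals.

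Estimated counts were rounded to whole numbers and divided by the library total, and exact 95% Clopper-Pearson intervals were computed on each gene's share. Changes in the ratio of 2 genes have exact conditional intervals. Reads carry no molecular identifiers, so intervals cover counting error only. A pseudocount of 1 and a filter at an FPKM of 1 were used, and the pseudocount understates the difference of low genes. Unlisted genes entered at 0. The members, gene lists, markers and motifs were chosen with earlier results of these data known. Named are the 9 members, Zeb1, Epcam and Pcna, and genes drawn from those with the 3 highest and 3 lowest log2 ratios of each list. Genes outside that rule (Xrcc1, Polb, Idh1, Krt18 and other markers, Gm4737) were named after their values were seen. No gene is named for likeness of pattern, since 2 libraries give 1 ratio per gene. The steps were tested on simulated counts with counting error alone and the same length per gene in both libraries. Differences between animals or in listed length were not simulated. Coordinates are from the GENCODE annotation (GRCm38, to which mm10 corresponds). Python 3.11.15, numpy 2.4.6, pandas 2.3.3, scipy 1.17.1, matplotlib 3.10.9 and, for TMM factors alone, R 4.3.3 with edgeR 4.0.16 were used. Alternatives were other scalings, thresholds, pseudocounts and filters.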

Additional observations from a re-analysis of the deposited data

How the results depend on the processing

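With 1 library per genotype no result has a replicate check, and depth limits Tet1 and Dnmt3b most. At least 2-fold higher were Dnmt1 and Uhrf1 under every scaling, pseudocount and filter tried, and at 3-fold 1 gene, Uhrf1. At least 2-fold lower was Tet2 with the authors' FPKM, and 0 genes were by count ratio or at 3-fold. At 1.5-fold 2 were lower (Tet2 and Mbd2). The shares of all compared genes at 1.5-fold and 3-fold are not given here, so the member counts at those thresholds have no background. Of 45 alternative ratios of the members, 30 lay inside the counting interval and 15 outside, and none of the called ones changed direction. Over them the ratio ran from 2.29 to 2.57 for Dnmt1, 5.4 to 6.05 for Uhrf1, 0.39 to 0.718 for Tet2, 1.35 to 1.51 for Dnmt3a, 1.12 to 1.26 for Dnmt3b, 1.54 to 1.72 for Tet1, 0.874 to 0.979 for Tet3, 0.56 to 0.628 for Mbd2 and 1.26 to 1.41 for Mbd3. Of the 65 related genes, 10 were 2-fold higher, against 24 at 1.5-fold and 4 at 3-fold. Without genes with non-whole counts, an alternative chosen after seeing the data, 6 were. The shares of all compared genes at these 3 settings are not given here. With the median-ratio scaling and with TMM factors 7 were 2-fold higher, beside 7.64% and 7.71% of all compared genes. Under both, 3 were 2-fold lower, beside 10.4% and 10.7%. As a share of counts, not per length, Dnmt1 held 60.8% (PyMT) and 73% (knockout) of its family, Tet2 17.3% and 12.8%, and Mbd3 62.2% and 78.7%. Relative to S-phase genes, the knockout over PyMT level of Dnmt1 was 0.585 against the median gene, 0.701 against the summed list and 0.768 against Pcna, and that of Uhrf1 1.37, 1.64 and 1.8. No paired analysis was possible because each genotype has 1 library.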

Other observations

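Genes that DNA methylation is known to control were looked at beside the enzymes. Of 15 germline genes that methylation silences in body cells, 6 were listed in either library, and 1 passed the FPKM filter of 1. That gene was Sycp3, a protein of the meiotic chromosome axis, with 95 counts in the PyMT and 145 in the knockout library (count ratio 1.55, 1.19 to 2.03). Dazl, Mael and Tdrd1 of the same list were listed in neither table.

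Imprinted genes, which are read from 1 parental copy by methylation marks, varied. Of 11 compared, 2 were at least 2-fold higher and 1 lower, beside 10.2% and 8.78% of all compared genes. The median log2 ratio of the 11 was 0.14, beside 0.13 for all compared genes. Cdkn1c, a brake on the cell cycle, was at 32.86 and 79.63 FPKM (count ratio 2.44, 2.28 to 2.61), although genes of S phase were higher in the same library. Mest was at 0.42 and 1.87 FPKM, with counts that were not whole. Igf2, a growth factor, had 105 and 15 counts (0.145, 0.0783 to 0.25), and the noncoding RNA gene Meg3 198 and 457 (2.34, 1.98 to 2.78). DNA methylation itself was not measured, so none of these values bears on its level.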
